A study of Drosophila melanogaster with 9 samples.

Results

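Cytosolic ribosomal protein genes of Drosophila melanogaster were taken as all genes whose current symbol starts with RpL or RpS followed by a digit or by P, as in RpL3, RpS19b or RpLP0. The RefSeq annotation of the assembly Release 6 plus ISO1 MT held 92 such genes, and 41 of them were measured. These were 25 of 54 with an RpL symbol, named for the large subunit, and 16 of 38 with an RpS symbol, named for the small subunit. The symbols also cover relatives that may not be parts of the finished ribosome. The other 51 had no probe set listed with that gene alone and were not analysed here. Whether the array holds probes for them was not tested. The 41 genes stood among 11983 genes tested on 9 Affymetrix Drosophila_2 arrays. Total RNA came from an SXC mutant strain (3 arrays), an OGA mutant strain (3 arrays) and wild type (3 arrays). The labels give no allele, tissue, sex, age or stage, and the title of the series names oogenesis. They do not say whether the arrays of a group came from separate flies, so the p-values measure the spread between arrays, which may be technical. The precision of every estimate is limited by there being 9 arrays in all.

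A cytosolic ribosome has a large and a small subunit, each built from ribosomal RNA and a fixed set of proteins, and most of the genes for these proteins are among the most highly transcribed genes of any growing cell. The ovary of a feeding fly makes ribosomes in bulk for the egg, and several ribosomal proteins of the fly have a second gene copy that is known to be used mainly in the germline or the testis. O-GlcNAc is a single sugar placed on nuclear and cytosolic proteins by O-GlcNAc transferase, which sxc encodes, and removed by O-GlcNAcase, which Oga encodes. It responds to nutrient supply, as does ribosome production.

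All values below are log2 levels as deposited, and a difference of 1 on this scale is a doubling. The arrays had medians between 5.97 and 6.05 and highest values between 15.26 and 15.36. The sxc level was 10.36, 10.32 and 10.36 on the SXC mutant arrays, against 11.84, 11.87 and 11.79 on the wild-type arrays, a log2 change of -1.49 (SE 0.06, limma adjusted p = 2.8e-07). The Oga level was 8.88, 8.90 and 8.75 on the OGA mutant arrays, against 10.13, 9.68 and 9.88 on the wild-type arrays, a log2 change of -1.05 (SE 0.10, limma adjusted p = 0.00698). Both targeted genes were thus lower in the strain named for them, and the sources used here do not say whether the probes read the stretch of the gene that was mutated. Array 1 of the SXC mutant stood apart on the first principal component of all genes, at 22.7 against 13.0 and 10.5 for its replicates and -12.3 to -4.3 for the other 6 arrays. It was also the array farthest from the median of the 9 in 18 of the 41 ribosomal protein genes. The 3' minus 5' signal of a GAPDH control, a measure of how complete the labelled RNA was, averaged 2.94 ± 0.31 in the SXC mutant, 2.11 ± 0.12 in the OGA mutant and 2.05 ± 0.26 in wild type (SD, n = 3 each). The SXC mutant's difference of 0.89 from wild type had an exact two-sided permutation p of 0.1, the smallest that 3 against 3 arrays allow (adjusted p = 0.32 over 8 comparisons of control probe sets). Its part in the results below was not tested.

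The ribosomal protein genes fell into a bright and a dim set. Of the 41, 30 had a mean level of at least 14, where the median over all genes tested was 7.50, and 8 had a mean under 9. The other 3, between 9 and 14, were RpL7-like (13.60), RpL24-like (13.53) and RpLP0-like (11.70). Their relatives in yeast are not parts of the finished ribosome but factors that assemble the large subunit. Every gene of the dim set had an a, b, -2 or -like suffix, which marks a second copy or relative of another ribosomal protein gene. They were RpS19b (8.18), RpS5b (7.81), RpS28a (6.79), RpL37-2 (6.75), RpS10a (6.63), RpS28-like (5.32), RpL22-like (5.16) and RpL10Aa (5.05). The last pair lay below the 25th percentile of all genes tested (5.19). No detection calls were used, so whether these 8 genes were expressed is not settled by their levels, and levels of different probe sets depend on the probes as well as on the RNA. The plot of levels by array shows the 9 values of each gene.

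**Figure D1:**
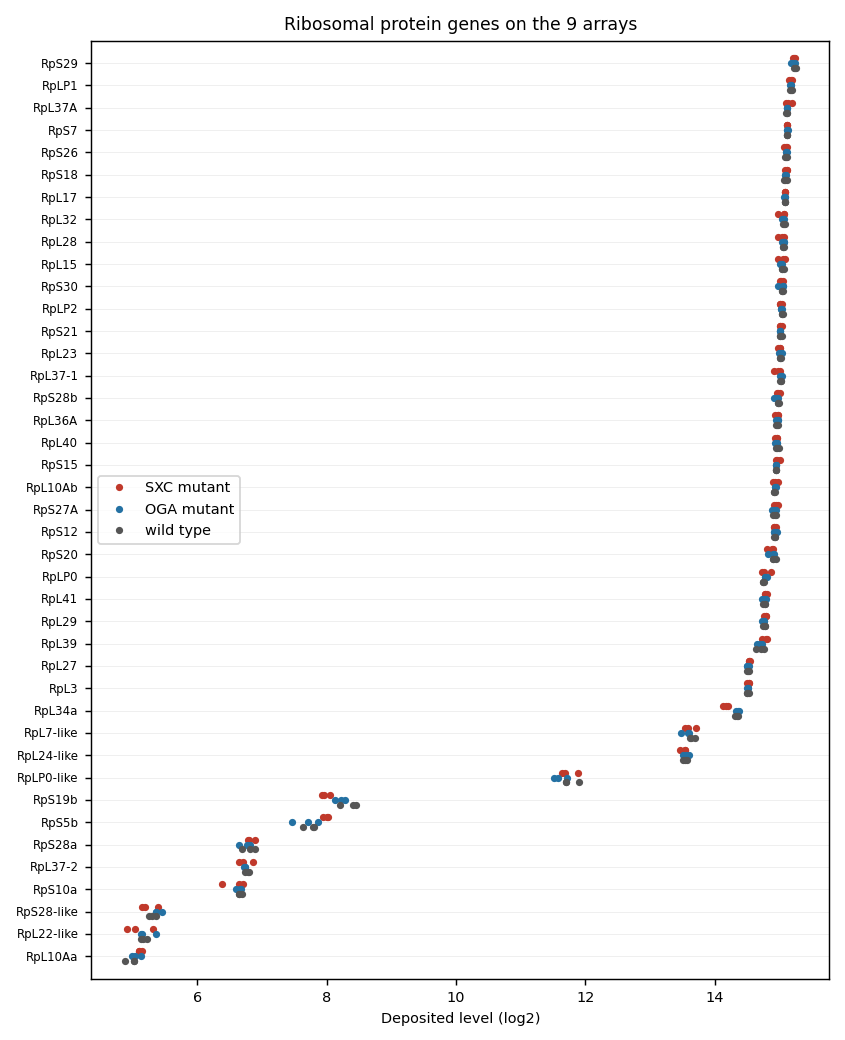
Deposited log2 level of the 41 measured ribosomal protein genes on each of the 9 arrays, one row per gene, with 3 points each for the SXC mutant, the OGA mutant and wild type. The 30 genes at 14 or above lie in narrow bands near the right end, the 8 dim genes lie between 5.05 and 8.18 on average, and RpLP0-like lies between them.

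The bright genes varied little between arrays. Their levels lay close under the highest values on the arrays, and whether this narrowed their spread was not tested. Over the 9 arrays the difference between the highest and the lowest value was 0.026 in the gene that varied least and 0.255 in the one that varied most, and 23 of the 30 stayed within 0.1. RpS7, a small-subunit protein, had 15.11, 15.12 and 15.12 in the SXC mutant, 15.11, 15.11 and 15.13 in the OGA mutant and 15.12, 15.12 and 15.12 in wild type. RpL3, a large-subunit protein near the site where peptide bonds form, had 14.50, 14.52 and 14.52 in the SXC mutant, 14.51, 14.50 and 14.51 in the OGA mutant and 14.49, 14.49 and 14.52 in wild type. The groups overlapped in both genes. RpL32, widely used as a constant reference in fly expression assays, had 14.97, 15.07 and 15.07 in the SXC mutant, 15.05, 15.04 and 15.07 in the OGA mutant and 15.05, 15.06 and 15.08 in wild type, with array 1 of the SXC mutant the lowest of the 9. The stalk proteins RpLP1 and RpLP2, which recruit elongation factors to the ribosome, stayed within 0.055 and 0.054 over the 9 arrays.

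In the SXC mutant, 1 of the 41 ribosomal protein genes changed against wild type. RpS19b fell, and no gene rose. A gene was called where its limma p, adjusted by Benjamini and Hochberg's method across the whole array, was under 0.05. By the same rule 12.9% of all genes were called, 5.09% higher and 7.83% lower. The median log2 change of the 41 was -0.007, where it was -0.006 over all genes tested. The changes ran from -0.37 to 0.25, and 37 of 41 were smaller than 0.1 in size. At an unadjusted p under 0.05 there were 3 of the 41, RpS19b, RpL34a and RpS5b, where 26.1% of all genes had such a p. The 25 genes with an RpL symbol had 0 called and a median of -0.011, and the 16 with an RpS symbol had 1 called and a median of -0.003.

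RpS19b, one of the fly's pair of genes for a small-subunit protein and known from the fly as a germline form, had 8.06, 7.93 and 7.96 in the SXC mutant, 8.22, 8.28 and 8.13 in the OGA mutant and 8.46, 8.40 and 8.21 in wild type. Every SXC mutant array read lower than every wild-type array, and the OGA mutant arrays overlapped wild type. The log2 change in the SXC mutant was -0.37 (SE 0.08, 95% interval -0.546 to -0.204, limma adjusted p = 0.0106), which is 1.30-fold lower. Without array 1 of wild type the change was -0.323 with an adjusted p of 0.0529, and over all 20 alternatives the adjusted p ran from 0.000412 to 0.0529. Its partner RpS19a was not analysed here.

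In 4 other genes the SXC mutant and wild-type arrays did not overlap without the change being called. With RpS19b these made 5 of 41, 3 lower and 2 higher, where 32.7% of all genes had such groups, 18.7% lower and 14% higher. RpL34a, a large-subunit protein, had 14.12, 14.17 and 14.20 in the SXC mutant, 14.36, 14.32 and 14.37 in the OGA mutant and 14.34, 14.35 and 14.31 in wild type. The 3 SXC mutant arrays were the lowest of the 9, with a log2 change of -0.17 against wild type (SE 0.06, limma adjusted p = 0.0661). RpL34a had the widest range and the lowest mean of the 30 bright genes, and the adjusted p ran from 0.00446 to 0.216 over the alternatives. RpL37-1, a large-subunit protein, had 14.92, 15.00 and 14.98 in the SXC mutant and 15.02, 15.01 and 15.02 in wild type, with all SXC mutant arrays the lower ones, a log2 change of -0.047 (SE 0.056, limma adjusted p = 0.673).

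RpS5b, a small-subunit protein whose gene is known from the fly as the germline copy of RpS5a, had 8.02, 8.01 and 7.95 in the SXC mutant, 7.87, 7.72 and 7.47 in the OGA mutant and 7.64, 7.81 and 7.79 in wild type. The SXC mutant arrays were the 3 highest of the 9, and array 3 of the OGA mutant was the lowest. The log2 change in the SXC mutant was 0.25 (SE 0.09, 95% interval 0.041 to 0.457, limma adjusted p = 0.116, with a range of 0.029 to 0.343 over the alternatives). Without array 3 of the OGA mutant, which enters only through the shared estimate of the spread, the adjusted p was 0.039. RpL10Aa, the dim copy of a large-subunit protein of the L1 stalk, had 5.10, 5.14 and 5.10 in the SXC mutant and 5.03, 4.88 and 5.02 in wild type, a log2 change of 0.14 (SE 0.07, limma adjusted p = 0.214). The SXC mutant arrays were all above the wild-type arrays, at a level below the 25th percentile of all genes. RpS5b and RpS19b, both known as germline forms, thus had SXC mutant arrays on opposite sides of wild type.

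**Figure D2:**
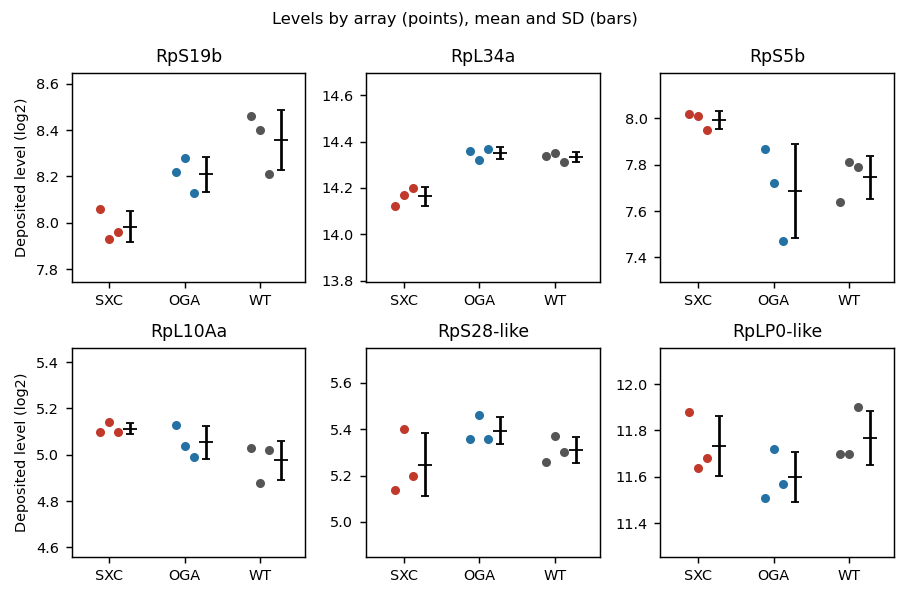
Deposited log2 level on each array of RpS19b, RpL34a, RpS5b, RpL10Aa, RpS28-like and RpLP0-like, with the SXC mutant, the OGA mutant and wild type from left to right and the mean with its SD (n = 3) beside the points. All 6 panels span 0.9 log2 units, and the SXC mutant points lie below all wild-type points for RpS19b and RpL34a and above them for RpS5b and RpL10Aa.

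Of 7 measured female germline markers 2 rose in the SXC mutant and 5 were not called, where 5.09% of all genes were called higher. Those that rose were grk (11.61, 11.55 and 11.48 against 11.08, 11.24 and 11.12 in wild type, log2 change 0.40, limma adjusted p = 0.00484) and nanos (5.10, 5.11 and 5.05 against 4.72, 4.68 and 4.44 in wild type, log2 change 0.47, limma adjusted p = 0.00364). The summed level of the 7 per array was 41.1 to 41.8 in the SXC mutant, 40.0 to 40.5 in the OGA mutant and 39.9 to 40.5 in wild type, and grk was the only one of the 7 with a mean above 9, so the defining markers of the ovary were mostly in the dim range. None of 8 follicle cell markers (means 4.58 to 7.45) and none of 8 testis markers (means 3.94 to 5.83) changed, with summed levels of 49.7 to 50.4 and 37.9 to 38.6 in the SXC mutant and 49.3 to 50.1 and 38.1 to 38.9 in wild type. Of the muscle (3 measured), neuron (5), gut (6) and fat body (3) markers, up and alphaTry rose and elav fell in the SXC mutant. The other 14 were not called. The means of nanos (4.8), up (5.14) and alphaTry (4.79) lay below the percentile level of 5.19 given above, and that of elav was 8.24. Without detection calls, these levels do not settle whether nanos, up and alphaTry were expressed. The 4 blood cell markers had means from 9.71 (Hml) to 14.14 (He), and 1 of them, eater, rose in the SXC mutant by a log2 change of 0.57 (limma adjusted p = 0.0081). The part of these markers in the RpS19b result was not tested. In RNA extracted in bulk, fewer cells of a type and less RNA per cell cannot be told apart.

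Against wild type the bright genes had 0 of 30 called in the SXC mutant, where 6.78% of the 59 other genes at 14 or above were called. In 2 of the 30 (RpL34a and RpL37-1) the groups did not overlap, where this held for 45.8% of those 59. The median size of the log2 change was 0.015 in the 30 and 0.063 in the 59, and the median SD within groups was 0.021 and 0.046. These sets also differed in median gene length (1147.5 bp in the 30 and 2362 bp in the 59). The part of length in this contrast was not tested. At 14.5 or above, 29 ribosomal protein genes and 16 others were left, with 0 called in both sets and groups that did not overlap in 1 and 6 of them. In these 29 genes the 95% intervals of the change lay between -0.178 and 0.196. Their means lay between 14.51 and 15.22, close under the highest values on the arrays. Whether a change in RNA would still change the signal by as much near the top of the scale was not tested. In the dim set 1 of 8 was called, where 6.51% of all genes under 9 were called. The plot of change against level shows how the genes lie.

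**Figure D3:**
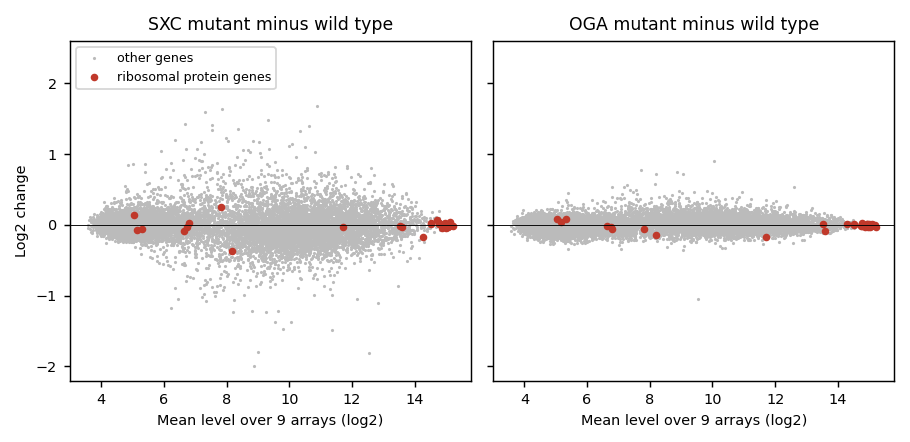
Log2 change against mean log2 level over the 9 arrays for the 41 ribosomal protein genes and all other genes tested, for the SXC mutant minus wild type on the left and the OGA mutant minus wild type on the right. The bright ribosomal protein genes lie close to 0 at the right end of both panels, where the spread of the other genes also narrows, and RpS19b at -0.37 and RpS5b at 0.25 are the outermost ribosomal protein genes on the left.

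In the OGA mutant, 0 of the 41 ribosomal protein genes changed against wild type, where 0.00835% of all genes were called by limma at an adjusted p under 0.05. That is a single gene, Oga. At an unadjusted p under 0.05 there were 0 of the 41, where 3.91% of all genes had one, and the lowest adjusted p was 0.974. The median log2 change was -0.005, where it was -0.001 over all genes tested, and 39 of 41 changes were smaller than 0.1. In 3 genes the groups did not overlap, 1 higher and 2 lower, where 9.04% of all genes had such groups, 4.81% higher and 4.23% lower. RpLP0, the base of the ribosomal stalk, had 14.80, 14.77 and 14.78 in the OGA mutant and 14.76, 14.75 and 14.75 in wild type. RpLP2, a stalk protein, had 15.02, 15.03 and 15.02 in the OGA mutant and 15.03, 15.03 and 15.05 in wild type, where the groups part only beyond the second decimal. RpL7-like had 13.59, 13.60 and 13.47 in the OGA mutant and 13.69, 13.63 and 13.61 in wild type, a log2 change of -0.092 (SE 0.068, limma adjusted p = 0.974).

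The lowest estimates in the OGA mutant were those of RpLP0-like and RpS19b. RpLP0-like had 11.51, 11.72 and 11.57 in the OGA mutant, 11.88, 11.64 and 11.68 in the SXC mutant and 11.70, 11.70 and 11.90 in wild type. The groups overlapped, and the log2 change in the OGA mutant was -0.17 (SE 0.09, 95% interval -0.362 to 0.026, limma adjusted p = 0.974). RpS19b had a log2 change of -0.14 in the OGA mutant (SE 0.08, 95% interval -0.314 to 0.028, limma adjusted p = 0.974), with OGA mutant arrays that overlapped wild type. The highest estimates were those of RpS28-like at 0.084 (SE 0.076) and RpL10Aa at 0.078 (SE 0.066), both dim and with overlapping groups. The largest fall and the largest rise among the 30 bright genes were -0.035 and 0.032, and their 95% intervals lay between -0.165 and 0.165. The groups did not overlap in 2 of these 30, where this held for 5.08% of the 59 other genes at 14 or above.

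Set directly against each other, the OGA and SXC mutants differed in 0 of the 41 genes, where 11.8% of all genes were called by limma, 7.79% higher and 3.98% lower in the OGA mutant. In the dim set 0 of 8 were called, where 6.44% of all genes under 9 were. Their groups did not overlap in 3 genes, 2 higher and 1 lower in the OGA mutant, where 30.2% of all genes had such groups, 18.5% higher and 11.7% lower. The 3 were RpL34a (log2 difference 0.19, SE 0.06, limma adjusted p = 0.0507), RpS5b (-0.31, SE 0.09, adjusted p = 0.0575) and RpS19b (0.23, SE 0.08, adjusted p = 0.0806), each as OGA mutant minus SXC mutant. They were also the 3 of the 41 with an unadjusted p under 0.05, where 26.6% of all genes had one. The calls were close to the threshold, and between 0 and 3 of the 41 genes passed it under the alternatives. Because RpS19b was called in the SXC mutant and not in the OGA mutant, this direct comparison bears on it, and it did not pass. The median difference of the 41 was 0.000, where it was 0.008 over all genes tested.

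Paralogs, the second copies of a ribosomal protein gene, allowed 4 pairs with both members measured. Because levels of different probe sets cannot be set against each other, only the change of the difference within a pair was compared between genotypes, in 8 comparisons by an exact two-sided permutation test whose smallest possible p is 0.1. For RpL10Aa and RpL10Ab, copies of one large-subunit protein, the difference within an array was 0.124 higher in the SXC mutant than in wild type (pooled SD 0.064, n = 3 each, exact p = 0.1, adjusted over the 8 comparisons 0.4). In the OGA mutant it was 0.063 higher (pooled SD 0.068, exact p = 0.4, adjusted 0.8). RpL10Aa lay below the 25th percentile of all genes and RpL10Ab near the top of the scale. For RpLP0 and RpLP0-like, a stalk protein and a relative that in yeast helps assemble the large subunit, the change against wild type was 0.066 in the SXC mutant (pooled SD 0.089, exact p = 0.5, adjusted 0.8) and 0.20 in the OGA mutant (pooled SD 0.12, exact p = 0.2, adjusted 0.533). Since no p under 0.1 was possible, these tests could not pass a threshold of 0.05 whatever the values, and the RpL10Aa and RpL10Ab pair in the SXC mutant reached that smallest p.

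For RpS28a and RpS28b, copies of one small-subunit protein, the difference within an array changed by 0.021 in the SXC mutant (exact p = 0.8) and by -0.027 in the OGA mutant (exact p = 0.7), each with an adjusted p of 0.914. RpL37-1 and RpL37-2, formerly RpL37a and RpL37b, were added as a pair after their values were seen. Their difference changed by -0.014 in the SXC mutant (exact p = 1.0) and by 0.043 in the OGA mutant (exact p = 0.1, adjusted 0.4). The dim copies themselves had overlapping arrays in all 3 groups. RpS28a had 6.89, 6.78 and 6.80 in the SXC mutant, 6.77, 6.64 and 6.82 in the OGA mutant and 6.70, 6.81 and 6.90 in wild type. RpL37-2 had 6.87, 6.71 and 6.65 in the SXC mutant, 6.74, 6.74 and 6.72 in the OGA mutant and 6.80, 6.74 and 6.78 in wild type.

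**Figure D4:**
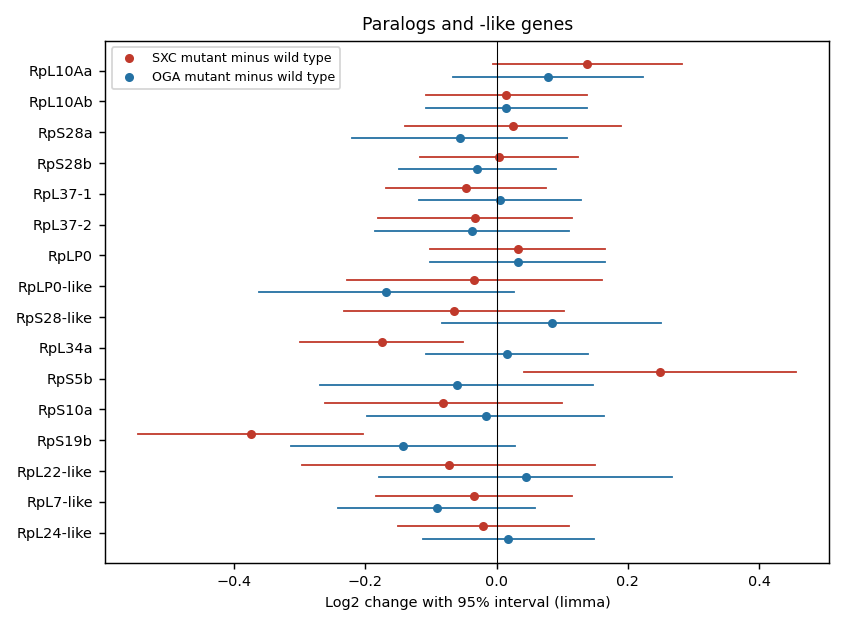
Log2 change with its 95% interval from limma for 16 paralogs and -like genes, for the SXC mutant minus wild type above and the OGA mutant minus wild type below in each row. The intervals of RpS19b and RpL34a lie below 0 and that of RpS5b above 0 in the SXC mutant, before adjustment over all genes, and every interval of the OGA mutant includes 0.

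RpS10a, RpL22-like and RpL24-like were measured without their partner, and RpS28-like was in none of the pairs compared. RpS19b, RpS5b, RpL34a and RpL7-like, described above, also lacked a measured partner, so no pair was compared for them. RpS10a, a small-subunit protein, had 6.39, 6.64 and 6.71 in the SXC mutant, 6.68, 6.66 and 6.60 in the OGA mutant and 6.70, 6.64 and 6.64 in wild type. Its estimate in the SXC mutant, -0.081 (SE 0.082), rested on array 1 and was 0.015 without it. RpL22-like, known from the fly as a testis-enriched relative of RpL22, had 5.32, 4.92 and 5.04 in the SXC mutant, 5.13, 5.37 and 5.14 in the OGA mutant and 5.17, 5.22 and 5.13 in wild type, and array 1 of the SXC mutant was again apart from its replicates. RpS28-like had 5.14, 5.40 and 5.20 in the SXC mutant, 5.36, 5.46 and 5.36 in the OGA mutant and 5.26, 5.37 and 5.30 in wild type. RpL24-like had 13.54, 13.54 and 13.46 in the SXC mutant, 13.51, 13.60 and 13.56 in the OGA mutant and 13.53, 13.57 and 13.50 in wild type, with all 3 groups overlapping.

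In 4 genes a further probe set gave a second reading, and the most variable one was read far from the top of the scale. For RpS30, made as a fusion with a ubiquitin-like protein, the probe set with a mean of 10.42 had 10.40, 10.21 and 10.36 in the SXC mutant, 10.48, 10.50 and 10.18 in the OGA mutant and 10.50, 10.53 and 10.59 in wild type. Every SXC mutant array read lower than every wild-type array, and the OGA mutant arrays overlapped wild type. The log2 change was -0.21 in the SXC mutant (SE 0.09, limma adjusted p = 0.164) and -0.15 in the OGA mutant (SE 0.09, limma adjusted p = 0.970). The bright probe set of RpS30 gave -0.0195 in the SXC mutant and -0.0179 in the OGA mutant. The dim probe set of RpS7 had 7.99, 8.07 and 8.06 in the SXC mutant, 8.03, 8.09 and 8.13 in the OGA mutant and 8.13, 8.10 and 8.14 in wild type. The SXC mutant arrays were all below wild type, and the log2 change was -0.084 in the SXC mutant (limma adjusted p = 0.430) and -0.044 in the OGA mutant (limma adjusted p = 0.976). The dimmest probe set of RpL3 gave -0.061 in the SXC mutant and 0.35 in the OGA mutant (SE 0.18, limma adjusted p = 0.875 and 0.970), and array 3 of the OGA mutant, at 8.08, was the highest of the 9. That of RpS29 gave -0.073 in the SXC mutant and 0.095 in the OGA mutant (limma adjusted p = 0.692 and 0.970). None of these changes was called. RpL3 and RpS29 each had 1 more probe set, which no fit used. That of RpL3 had 11.26, 11.26 and 11.35 in the SXC mutant, 11.40, 11.18 and 11.68 in the OGA mutant and 11.26, 11.20 and 11.06 in wild type. That of RpS29 had 14.97, 14.92 and 14.89 in the SXC mutant, 14.86, 14.86 and 14.82 in the OGA mutant and 14.85, 14.87 and 14.89 in wild type. In both, the highest SXC mutant array lay above all wild-type arrays, so the SXC mutant was not lower in every further probe set. The sources used here do not say which transcripts the dim probe sets read.

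Genes that act around the ribosome were read from 5 lists, beside the 12.9% of all genes called in the SXC mutant and 0.00835% in the OGA mutant. Rack1, a small-subunit protein whose symbol falls outside the rule, had 14.79, 14.76 and 14.79 in the SXC mutant, 14.81, 14.78 and 14.80 in the OGA mutant and 14.78, 14.78 and 14.79 in wild type. Of 4 measured translation elongation factors 0 changed in either mutant, with medians of -0.041 in the SXC mutant and -0.006 in the OGA mutant. Of 12 measured regulators of ribosomal protein genes, among them mTor and S6k of nutrient signalling, 0 changed in either mutant, with medians of 0.057 and 0.065. The lowest p among them in the SXC mutant was that of foxo, which slows growth when insulin signalling is low, at a log2 change of 0.39 (SE 0.12, limma adjusted p = 0.0581).

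Of 29 measured ribosome biogenesis factors 1 rose and 1 fell in the SXC mutant (median -0.013). Nop17l, a relative of a yeast factor for box C/D small nucleolar particles, had 10.01, 9.70 and 9.90 in the SXC mutant, 9.61, 9.45 and 9.21 in the OGA mutant and 9.27, 9.46 and 9.53 in wild type, a log2 change of 0.45 in the SXC mutant (SE 0.11, limma adjusted p = 0.0235). Sbds, which in yeast and human releases a block on the new large subunit, had 11.21, 11.31 and 11.28 in the SXC mutant, 11.30, 11.47 and 11.39 in the OGA mutant and 11.49, 11.46 and 11.54 in wild type, a log2 change of -0.23 (SE 0.07, limma adjusted p = 0.038). Nop17l lay highest and Sbds lowest in the SXC mutant, and neither overlapped wild type there.

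Of 11 measured genes of the RNA polymerase I and III machinery, which makes ribosomal and transfer RNA, 2 rose and 1 fell in the SXC mutant (median -0.043). Tif-IA, the factor that recruits polymerase I, had 12.90, 12.78 and 12.77 in the SXC mutant, 12.59, 12.61 and 12.68 in the OGA mutant and 12.52, 12.52 and 12.60 in wild type (log2 change 0.27, SE 0.06, limma adjusted p = 0.0182). Maf1, a repressor of polymerase III, had 12.38, 12.24 and 12.23 in the SXC mutant, 11.96, 12.13 and 12.06 in the OGA mutant and 11.84, 12.05 and 12.11 in wild type (log2 change 0.28, SE 0.08, limma adjusted p = 0.0478). Polr1F, a polymerase I subunit, had 9.72, 9.83 and 9.86 in the SXC mutant, 10.08, 10.14 and 10.52 in the OGA mutant and 10.15, 10.12 and 10.20 in wild type (log2 change -0.35, SE 0.10, limma adjusted p = 0.0447). The SXC mutant arrays lay on one side of all wild-type arrays in each of the 3 genes, and the genes that rose included both an activator and a repressor. In the OGA mutant 0 of these 29 and 11 genes changed against wild type, with medians of 0.005 and -0.024. The OGA mutant was lower than the SXC mutant in Nop17l (log2 difference -0.45, limma adjusted p = 0.0270) and higher in Polr1F (0.44, limma adjusted p = 0.0202). The calls of Sbds, Maf1 and Polr1F against wild type ended under 12, 13 and 11 of the 20 alternatives, and those of Nop17l and Tif-IA under 5 and 3.

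**Figure D5:**
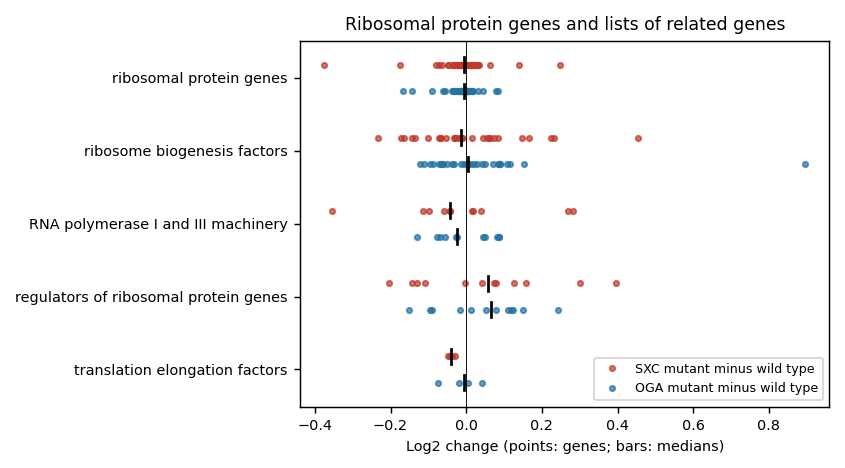
Log2 change of each measured gene (points) and the median (bars) for the ribosomal protein genes and 4 lists of related genes, with the SXC mutant minus wild type above and the OGA mutant minus wild type below in each row. All medians lie between -0.043 and 0.065, most ribosomal protein genes lie close to 0, and the single point at 0.90 is Gar1 in the OGA mutant.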

How the data were processed

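The authors measured RNA levels on 9 Affymetrix arrays and deposited 1 log2 value per probe set and array, a scale read from the values themselves. The submitters' processing notes name MAS5, RMA and Partek, with the role of each not given in the sources used here. Of 18952 probe sets, 183 were controls, 13647 were listed with 1 gene, 402 with several and 4720 with none. The probe set with the highest mean stood for each gene. Of the 41 ribosomal protein genes, 14 were read by a probe set whose name marks probes shared with other transcripts.

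The 3 genotypes were compared with limma 3.58.1 under R 4.3.3 (group means over all 9 arrays, 6 residual and 5.17 prior degrees of freedom), with Benjamini-Hochberg adjustment over all 11983 genes and a threshold of 0.05. The code was tested on simulated data. Values of a list were described by counts and medians. Any ribosomal protein gene could be named. From other lists up to 4 called genes with the smallest p were named, and Hml, He, Rack1, mTor, S6k, foxo and Gar1 were named after their values were seen. The members and lists were chosen with earlier results of these data known. Alternatives changed the normalization, filter, prior, array weights, replicate block, samples in the fit, probe set choice, length or level trends, and left out each array.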

Additional observations from a re-analysis of the deposited data

How the results depend on the processing

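The 41 ribosomal protein genes gave 0 calls for the OGA mutant against wild type under all 20 alternatives. For the SXC mutant against wild type, where 1 gene was called, an intensity trend with a robust prior, no moderation, a fit of only the 2 groups and removal of the mean level trend gave 2 each, array quality weights gave 4 (2 higher, 2 lower), and leaving out 1 array gave 0 (wild type 1) to 2 (OGA mutant 3). For the OGA mutant against the SXC mutant, where 0 were called, quantile normalization, the 25th percentile filter, the intensity trend, no moderation and removal of the length trend gave 1 each, removal of the level trend 2, array weights 3, and leaving out 1 array 0 to 1 (without OGA mutant 1). The cause was not tested.

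The median log2 change of the SXC mutant against wild type was -0.019 after median centring, 0.034 with the length trend removed and -0.035 with the level trend removed, and -0.011 to 0.001 without 1 array. For the OGA mutant against wild type it was 0.003 after centring and 0.016 without the length trend, and -0.008 to 0.005 without 1 array. For the OGA mutant against the SXC mutant it was 0.021 after centring, -0.008 with array weights, -0.031 and 0.031 with the length and level trends removed, and -0.009 to 0.001 without 1 array. Among the called genes rerun under the alternatives (RpS19b, Nop17l, Sbds, Tif-IA, Maf1 and Polr1F) no value changed sign; the cell type markers were not rerun. The direction of the medians is not settled. RpL10Aa and RpL22-like gave no value under the 25th percentile filter, which leaves them out.

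With the replicate number as a block, 1 ribosomal protein gene was called for the SXC mutant (RpS19b, adjusted p = 0.0135) and 0 in the other comparisons. The calls of Sbds and Maf1 ended (adjusted p = 0.0574 and 0.0762). Of 9 pairs of arrays with the same number, 1 had a correlation of deviations over 0.1 (range -0.215 to 0.289). That pair was array 2 of the OGA mutant and array 2 of wild type. Pairs with different numbers ran from -0.318 to 0.241. Whether arrays share a batch, under the same number or in another order, was not tested. In the SXC mutant RpL34a was called under 4 of the 20 alternatives, RpS5b under 3 and RpL10Aa under 1. With 3 arrays a group, and with 30 of the 41 genes close to the highest values on the arrays, a change that was not called is not shown to be absent.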

Other observations

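Gar1, a protein of the box H/ACA particles that modify ribosomal RNA, had 9.77, 9.78 and 12.39 on the OGA mutant arrays, 9.69, 9.63 and 9.89 on the SXC mutant arrays and 9.81, 9.56 and 9.88 on the wild-type arrays. The log2 change of 0.90 in the OGA mutant (SE 0.53, limma adjusted p = 0.974) rested on its array 3. On the same array the dimmest probe set of RpL3 read 8.08, against 7.46 and 7.32 on the other OGA mutant arrays and 7.55, 7.11 and 7.14 in wild type. RpS5b was lowest there as well, at 7.47.

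The 3 control probe sets for 18S ribosomal RNA were also read. Whether their signal follows the amount of ribosomal RNA was not tested. The 3' set averaged 13.95 ± 0.01 in the SXC mutant, 14.01 ± 0.18 in the OGA mutant and 13.76 ± 0.11 in wild type (SD, n = 3 each). The exact two-sided permutation p against wild type was 0.1 for the SXC mutant and 0.2 for the OGA mutant (both 0.32 adjusted over 8 comparisons of control probe sets). The middle set averaged 13.93 in the SXC mutant, 13.92 in the OGA mutant and 13.79 in wild type, and the 5' set 12.76, 12.55 and 12.49, with adjusted p from 0.32 to 0.9.

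Of 104 probe sets with a mean above 14.5, 57 had no gene listed and were not analysed here. Whether they include some of the ribosomal protein genes that were not measured was not tested.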
